A study of Homo sapiens with 3 samples.

Results

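USP10 and ZDHHC7 lie near each other on the long arm of human chromosome 16, with the gene CRISPLD2 between them. Their chromatin loops were described from a Hi-C study of cells that lack ORC2, a subunit of the origin recognition complex. Hi-C measures contacts between distant stretches of DNA by ligating the cut ends that lie close to each other in fixed nuclei. The study compared 1 library of an ORC2 deletion clone made with CRISPR/Cas9 and 1 library of an ORC2 rescue clone, in which ORC2 was put back from a vector, with 1 library of wild-type cells. All 3 were HCT116 p53-/-, a colorectal carcinoma line, so the wild-type cells carry that genotype too. Each altered line is 1 selected clone, and with 1 library a group, neither an error over replicates nor a test of one line against another could be had.

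Both genes were chosen by a measured value, the number of their loops that the authors' deposited table classes as conserved gain. That list of changed loops holds 279618 readable entries in hg38, each with its 2 end positions and a class. The classes are not conserved, conserved lost and conserved gain, and the last 2 are shortened here to lost and gained. The sources used here name neither the samples behind a gain nor the sense of the word conserved, so no class is read as a response to ORC2. A loop was counted at a gene when 5 kb inward from either listed position overlapped the gene body. In all, 134 of the 279618 listed loops had an end on USP10 or ZDHHC7, which are 2 of 9907 protein-coding genes at any listed end. The counts and shares that follow describe the choice and carry no test.

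Chromatin loops bring distant sites of a chromosome close to each other. Many are formed by cohesin, which extrudes DNA until it meets CTCF bound at the loop ends. In contact maps a strong loop appears as a patch of neighbouring bin pairs, so loops listed side by side are not independent events. USP10 encodes a deubiquitinase that removes ubiquitin from other proteins and binds the stress granule protein G3BP1. ZDHHC7 encodes a palmitoyltransferase of the DHHC family, which attaches the lipid palmitate to cysteines of other proteins. Expression of the 2 genes was not analysed here.

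In the authors' deposited table, loops from the body of USP10 reached over a whole gene, CRISPLD2, to the stretch just before ZDHHC7 and into its 3′ part. USP10 (chromosome 16, 84700000 to 84779922) had 134 listed loops, of which 70 were gained, 64 were not conserved and 0 were lost. ZDHHC7 (84974175 to 85027631) had 29, of which 10 were gained, 19 were not conserved and 0 were lost. All 29 loops at ZDHHC7 also ended on USP10, so the second gene adds no loop of its own. The left end lay on USP10 in 134 of 134 loops, and the right end lay on ZDHHC7 in 29 of 29. No listed loop ran from USP10 towards the other side, where the kelch-family gene KLHL36 lies.

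The gained share was 52.2% at USP10 (95% Wilson interval 43.8 to 60.5%) and 34.5% at ZDHHC7 (19.9 to 52.7%). With 10 kb added to both sides of the gene body, ZDHHC7 had 33 gained of 60 listed loops, 55.0%. With ends read 5 kb outward it had 20 of 44. In the authors' deposited table, 1.96% of all loops were gained, and 1.79% of those on chromosome 16. Among listed loops within the length range of the gained USP10 loops the share was 1.51%. Since gained loops were the reason for choosing the genes, nothing is read from the distance between these shares. The Wilson intervals describe counting error alone, for loops taken as separate events. For the lost class, 0 of 134 loops allows a share of up to 2.24% if the loops are taken as separate events. Over the whole list the lost share was 0.196%, so a share like that was not detectable at this number of loops. Loops listed side by side are not independent, so even the limit of 2.24% is too tight. By number of gained loops USP10 stood at rank 3 and ZDHHC7 at rank 106 of 9907 genes. By gained share they stood at ranks 36 and 78 of the 6113 genes with at least 10 listed loops.

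All of these loops, as listed in the authors' deposited table, formed a compact patch. It held 152 listed loops, of which 88 were gained and 64 were not conserved, with left ends from 84728569 to 84798830 and right ends from 84922322 to 84991891. No other listed loop had an end inside this span. The patch had 16 distinct left ends and 16 distinct right ends, spaced 4.78 and 4.79 kb apart at the median. Of the 256 pairs of a left and a right end that these make, 59.4% were listed. The unlisted pairs lay at the corners, which gives the patch its rounded outline. The 88 gained loops are 44.2% of the 199 gained loops on chromosome 16.

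**Figure D1:**
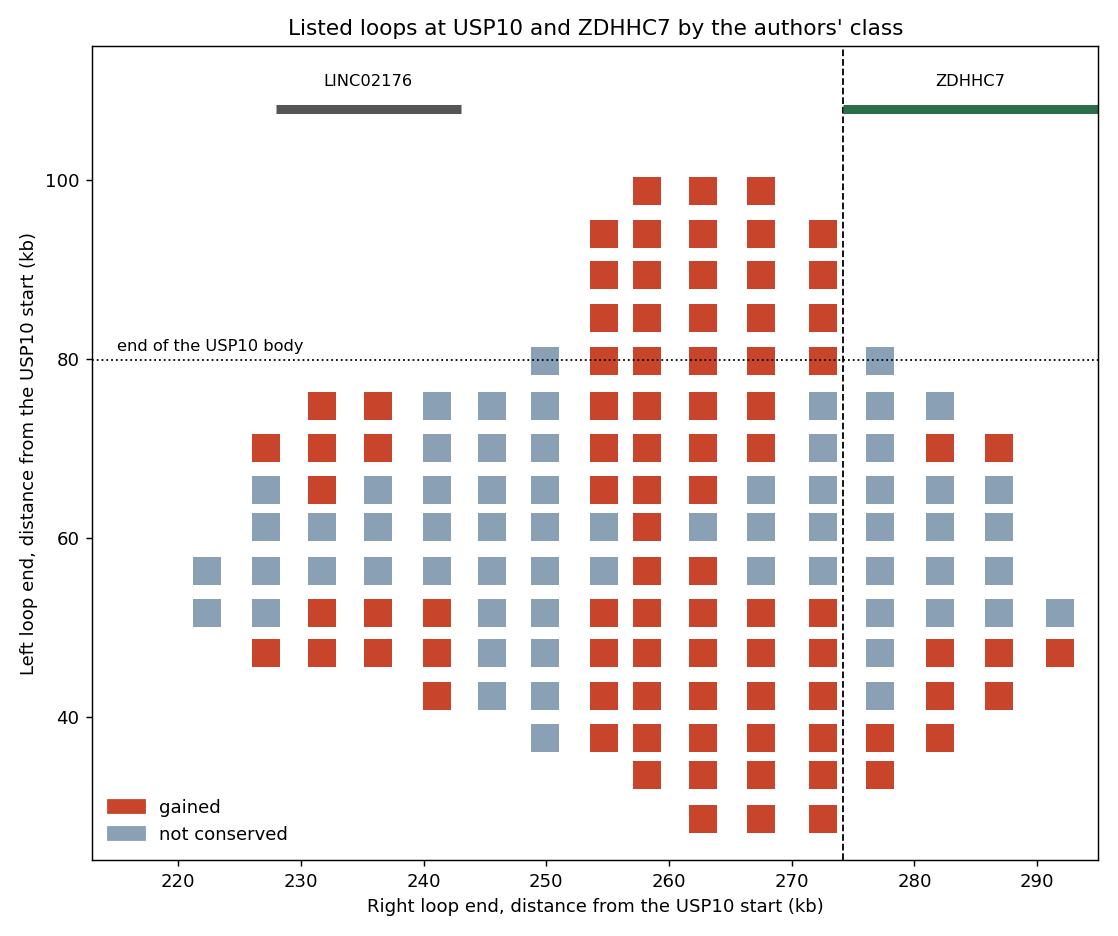
Each square is 1 listed loop, placed by its right end (x axis) and left end (y axis) as distances in kb from the USP10 start and coloured by the authors' class; the dashed line marks the ZDHHC7 boundary, the dotted line the end of the USP10 body, and bars above show LINC02176 and ZDHHC7. The 88 gained loops lie around a cross of mostly not conserved loops, at left ends 56.4 and 61.3 kb and right ends 246 and 250 kb from the start.

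Along USP10, the gained class was fullest at both sides and thinnest in between. In the authors' deposited table, the 6 left ends from 84728569 to 84751594 had 43 gained loops of 58 listed (74.1%). The next 2, at 84756371 and 84761291, had 3 of 29 (10.3%), and the 4 from 84765365 to 84779787 had 24 of 47 (51.1%). The dip did not come with fewer listed loops, since 15 and 14 loops were listed at those 2 left ends, where the highest number at any left end was 16. These stretches were drawn after the classes were seen.

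The right ends of the USP10 loops showed a similar alternation. The 5 right ends from 84954722 to 84972519, between the long non-coding RNA gene LINC02176 and ZDHHC7, had 46 gained loops of 57 listed (80.7%) in the authors' deposited table. At 84958200 all 11 loops from USP10 were gained. The 2 right ends just before them, at 84945585 and 84949894, had 0 of 18. Read 5 kb inward, the end at 84945585 still overlaps LINC02176, and its loops are counted at that gene below. The end at 84949894, with 0 gained and 10 not conserved loops, lies wholly between LINC02176 and ZDHHC7. The 80.7% thus covers only part of that interval. Farther from ZDHHC7, the 5 right ends from 84922322 to 84941080 had 14 of 30 (46.7%). Within ZDHHC7, the 4 right ends from 84977183 to 84991891 had 10 of 29 (34.5%). Of these stretches, the one from 84954722 to 84972519, which stops short of the ZDHHC7 body, had the highest gained share. The right-end stretches, too, were drawn after the classes were seen.

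**Figure D2:**
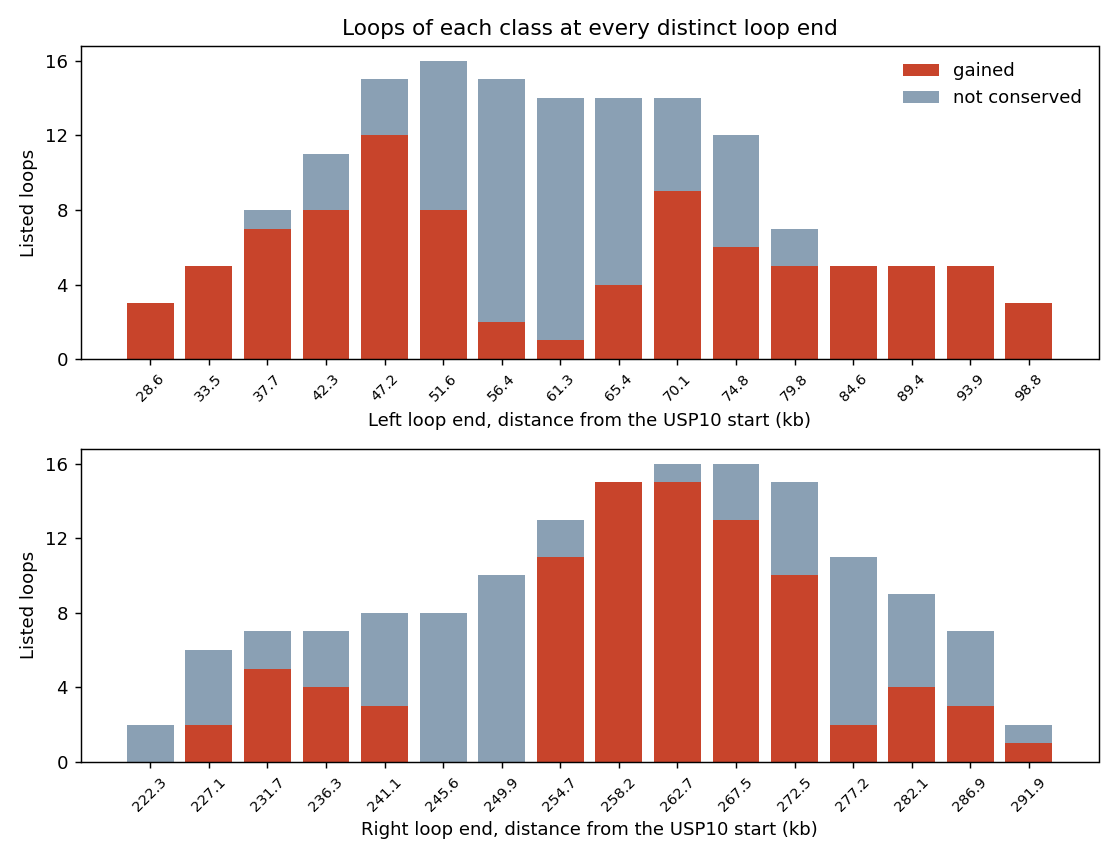
Bars give the number of listed loops (y axis) at each distinct left end (top) and right end (bottom), as distance from the USP10 start in kb, split into gained and not conserved. The gained count falls to 2 and 1 at left ends 56.4 and 61.3 kb and to 0 at right ends 246 and 250 kb, and 15 of 15 loops are gained at 258 kb.

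At ZDHHC7, gained loops came from 5 left ends in USP10 and not conserved loops from 9. In the authors' deposited table, 8 of its 10 gained loops had left ends from 84733492 to 84747194, and the other 2 started at 84770062. Both classes were present at 84742317 (2 gained and 1 not conserved), at 84747194 (3 and 1) and at 84770062 (2 and 1). The 4 left ends from 84751594 to 84765365 had 0 gained and 13 not conserved loops with ZDHHC7. The last 2, 84774788 and 84779787, had 0 gained loops, with 2 and 1 not conserved. Split by right end, 84977183 had 2 gained and 9 not conserved, 84982109 had 4 and 5, 84986898 had 3 and 4, and 84991891 had 1 and 1. The right end nearest to the ZDHHC7 boundary was thus mostly not conserved, next to a position outside the gene where most loops were gained.

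The gene boundaries cut through the patch. The last left end counted at USP10, 84779787, lies 135 bases before the end of the gene and had 5 gained of 7 listed loops. The next one, 84784643, starts 4721 bases past the gene and had 5 of 5. In all, 18 listed loops of 159 to 188 kb started past USP10, at 4 left ends, and 18 of 18 were gained in the authors' deposited table. Their right ends all lay from 84954722 to 84972519, the stretch where 46 of 57 loops from USP10 were gained too. Their left ends lie in LOC105371378, a long non-coding RNA gene (84780903 to 84800262). With the loops it shares with USP10, that gene had 23 gained of 25 listed. At ZDHHC7, the right end 84972519 falls 1656 bases short of the gene and had 10 gained of 15, whereas 84977183 reaches 3008 bases into it and had 2 of 11.

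Of the 134 loops at USP10, 105 had no protein-coding gene at the other end, and 60 of these were gained in the authors' deposited table. LINC02176 (84927975 to 84943057) overlapped the right end of 30 loops, with 12 gained. Neither a protein-coding nor a long non-coding RNA gene lay at the right end of 75 loops, of which 48 were gained. The non-coding genes were singled out after their values were seen. CRISPLD2 (84819985 to 84909508), which encodes a secreted glycoprotein, lay wholly between the ends of 152 of 152 loops and had no listed loop end.

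No listed loop end reached the start that RefSeq's promoter table gives for either gene, or the 5′ edge of either gene body. Other starts inside the gene bodies were not checked. The USP10 start lies at 84700000 on the forward strand, 28.6 kb from the nearest loop end. ZDHHC7 is on the reverse strand, and the start that RefSeq's promoter table gives for it, 85011535, lies inside the gene body and 19.6 kb from the nearest loop end. The 5′ edge of the ZDHHC7 body, 85027631, was 35.7 kb from the nearest end. The CRISPLD2 start, 84819985 on the forward strand, was 16.2 kb from the nearest end. In each case 0 listed loops had an end on the position. The gene table holds gene bodies only, so whether a loop end fell in an exon, an intron or a UTR was not determined. Hi-C chromatin was cut with DpnII, whose recognition sequence is GATC, and ligated ends come from such sites. To show what the enzyme sees at the starts, the 300-base promoters of RefSeq (GRCh38.p14), 1 for each gene, were searched for GATC, which reads the same on both strands. It was present in 41.7% of 27195 promoters, once each in those of USP10 and CRISPLD2 and not in that of ZDHHC7. The 30 bases around each site are given 5′ to 3′ on the forward strand with the site in capitals, from chr16:84699768-84699797 for USP10 and chr16:84819905-84819934 for CRISPLD2.
USP10: ctctccccttccgGATCcacagccaggcct
CRISPLD2: cagcgccgccagcGATCtgggggcgtggcc

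Gained and not conserved loops overlapped widely in length. At USP10 in the authors' deposited table, gained loops ran from 157 to 245 kb with a median of 207 kb (quartiles 188 and 225 kb). Its not conserved loops ran from 162 to 240 kb with a median of 198 kb (quartiles 176 and 212 kb). The shortest and the longest loop of USP10 were both gained. At ZDHHC7, gained loops had a median of 240 kb (212 to 245 kb) and not conserved loops one of 222 kb (197 to 240 kb). Gained loops of the whole list had a median of 300 kb, and all listed loops one of 234 kb. A loop's length here is fixed by the pair of ends it joins, so the lengths add nothing to the end positions.

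**Figure D3:**
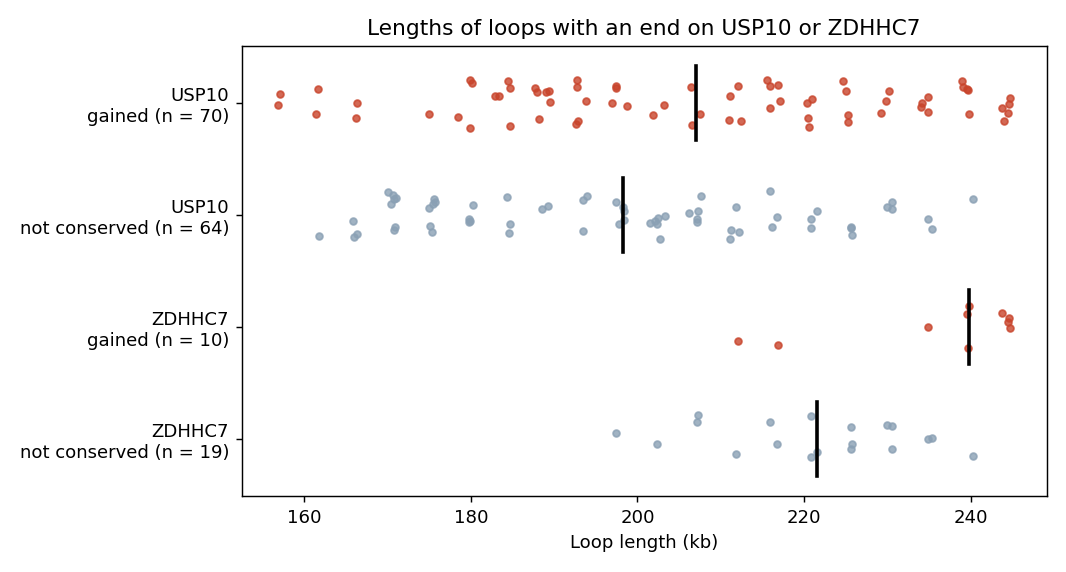
Each point is 1 listed loop, placed by its length in kb (x axis), in rows by gene and class, with vertical jitter only to separate points and a black bar at the median. The medians are 207 and 198 kb for gained and not conserved loops at USP10 and 240 and 222 kb at ZDHHC7, and the 29 ZDHHC7 loops are also among those of USP10.

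From 84 to 86 Mb of chromosome 16 lie 25 protein-coding genes, and 13 of them had a listed loop end. The authors' deposited table held 262 loops inside this window, 89 of them gained and 0 lost. Outside the patch, 110 loops were listed and 1 was gained, a loop joining CIBAR2 and GSE1, a gene for a chromatin-associated protein. USP10 had 134 listed loops, while the next highest counts were 30 each at MEAK7, a regulator of mTOR signalling, and EMC8, a subunit of the endoplasmic reticulum membrane complex. COX4I1, a subunit of cytochrome c oxidase, had 24. These 3 genes had 0 gained loops, as did SLC38A8, LOC124903734, WFDC1 and COTL1, with 1 to 6 listed loops each. At the border of the window, NECAB2 and MBTPS1, the gene of a membrane-bound protease that cleaves SREBP, each had 3 gained loops of 13. No listed loop ended on the remaining 12 genes, which include the flanking KLHL36 and KIAA0513, GINS2, a subunit of the replicative helicase, and IRF8, an interferon regulatory factor.

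**Figure D4:**
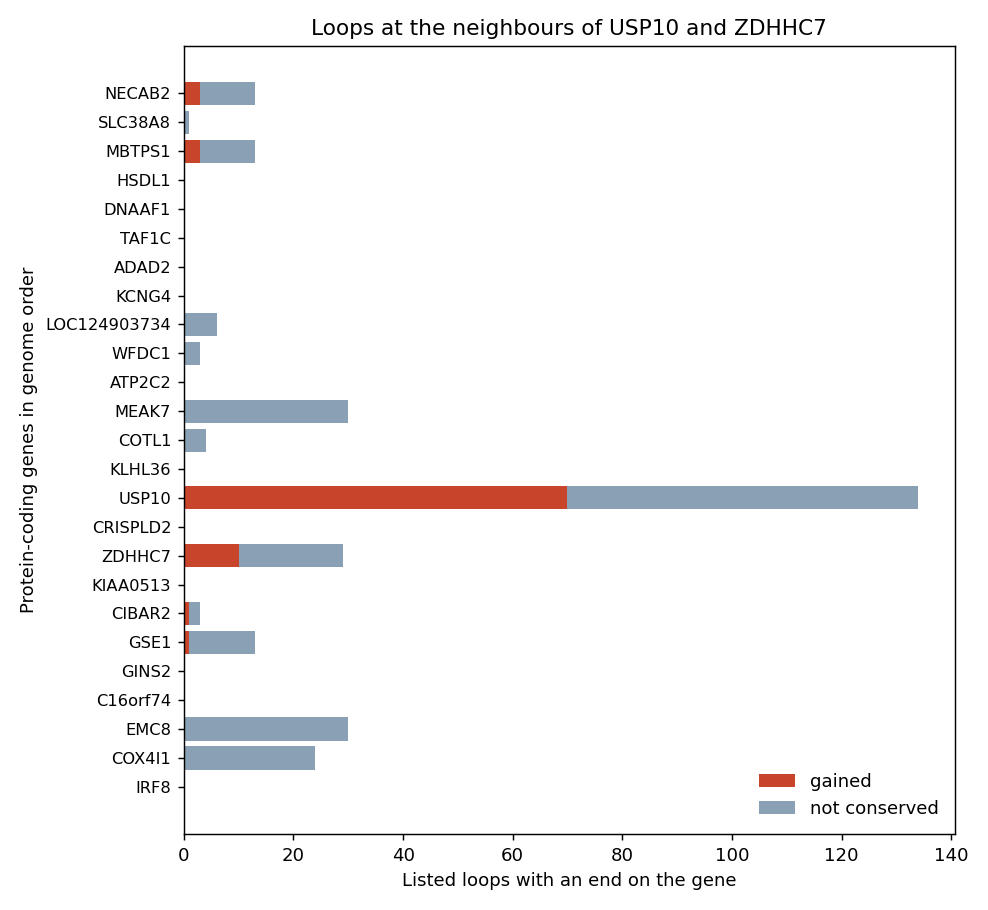
Horizontal bars give the number of listed loops with an end on each protein-coding gene from 84 to 86 Mb of chromosome 16, in genome order from top to bottom, split into gained and not conserved. USP10 has 134 listed loops with 70 gained, ZDHHC7 29 with 10 gained, and no other gene has over 30 listed or over 3 gained.

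Relatives of the 2 genes elsewhere in the genome were counted in the same way. Of 50 other ubiquitin-specific proteases found in the annotation, 25 had a listed loop end, and 9 of these 25 (36.0%) had a gained end in the authors' deposited table. Over all protein-coding genes with a listed end the share was 12.7%. The 9 were USP2, USP4, USP20, USP32, USP35, USP36, USP42, USP44 and USP47, with 29 gained loops among them. USP47, a protease of DNA polymerase beta, had 6 gained of 16 listed loops, USP2 6 of 18, and USP32 7 of 37. USP54, named after its values were seen, had the most listed loops of the family after USP10, 72, and 0 gained. Of 23 other DHHC palmitoyltransferases, 13 had a listed end, and 1 of these (7.69%) had a gained one, ZDHHC16 with 1 of 7. Of the USP10 partners and substrates reported here, the autophagy gene BECN1 had 4 listed loops and the poly(A)-binding protein gene PABPC1 had 46. Both had 0 gained and 0 lost loops. The other partners and substrates reported here, G3BP1 among them, had no listed loop end. No member of the 2 families had a lost end, where 1.85% of all genes with a listed end did. With only 25 and 13 members at a listed end, a share of that size could not be told from 0.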

How the data were processed

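Hi-C chromatin was cut with DpnII, and ligated ends were captured through biotin, per the labels' protocols. Bowtie is named in the submitters' processing notes, as are hg19 and hg38, with no role. The sources used here give no loop caller, threshold, contact normalisation or pair of samples compared, so depth is unknown, and a copy number difference between clones could enter the classes. The deposited loop list holds other values than expression or signal, namely 2 end positions and the authors' class word. Of 279669 rows, 49 without a class word and 2 repeats were left out, none of the 49 in the described patch. The deposited compartment table was not used: its 6 columns of values are named S1, S2 and S3, which match no sample label.

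Ends were read 5 kb inward, and genes came from RefSeq (GRCh38.p14), matched by symbol. Gained loops were joined into regions where both ends lay within 10 kb. Counting and joining were tested on simulated data. Python 3.11.15, pandas 2.3.3 and SciPy 1.17.1 were used. Intervals are 95% Wilson, and a count of 0 was given the limit that 3 counts make. The members and gene lists were chosen with earlier results of these data known, and 1 gene of the lists is not reported here. Named genes were the 2 members, their partners and the protein-coding genes from 84 to 86 Mb. Listed relatives with a gained or lost end and the 5 genes nearest to USP10 in gained share were named too. USP54 and the non-coding genes were added after their values were seen. Some USP10 partners and substrates without a gained or lost end were also named.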

Additional observations from a re-analysis of the deposited data

How the results depend on the processing

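Of 65 values recomputed under alternatives, 56 stayed near the reported value: counts within 1.5 times, shares inside the Wilson interval, medians inside an order-statistic interval. Most of this count is uninformative. Leaving out loops shorter than 100 kb could not change the values of the 2 genes, since the shortest loop of the patch was 157 kb. Ends read 10 kb inward, or as the listed base alone, also gave identical values. USP10 kept 60 to 80 gained loops under every alternative run, and lost loops stayed at 0. The ZDHHC7 counts depend on where the 3′ end of the gene is taken to lie, since gained loops lie just outside it. With ends read 5 kb outward it had 20 gained of 44 listed loops. With 10 kb added to the gene body it had 33 of 60, a share of 55.0%. The background share was 1.79% on chromosome 16, 1.51% within the length range of the gained USP10 loops, and 0% at the median gene with at least 10 listed loops. Joined within 10 kb, the 88 gained loops of the patch fell in 3 regions of 74, 8 and 6 loops. Within 20 kb they fell in 1 region. Of the 88, 70 had an end on USP10 and 18 started past it. Leaving out loops shared with ZDHHC7, or the patch from the background, was added after seeing the data. The planned compartment setting was not run. No paired analysis was possible because the list gives no values of single libraries.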

Other observations

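Among the 27 other genes with at least 20 gained loops in the authors' deposited table, the nearest were FAM162A (20 of 34 listed loops, 58.8%), SLCO2A1 (31 of 51, 60.8%) and RYK (51 of 81, 63.0%), all on chromosome 3, SHQ1 on the same chromosome (33 of 81, 40.7%), and NOL10 on chromosome 2 (32 of 79, 40.5%). Of these 5, NOL10 had the gained median closest to the 207 kb of USP10, 236 kb, and its gained loops of 214 to 250 kb overlapped the 157 to 245 kb of USP10. Those of SLCO2A1 (208 to 298 kb) and RYK (218 to 298 kb) also overlapped this range. Those of FAM162A (267 to 304 kb) and SHQ1 (851 to 936 kb) lay above it. SLCO2A1 and RYK share loops with each other. None of the 5 had a lost loop. The likeness is in the share alone, over classes from 3 libraries.

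The 5493 gained loops stand at the top of the authors' deposited table, and the sources used here do not say by what they are sorted. The USP10 patch holds 1.60% of the gained loops and 12 of the first 100. Its first loop, at place 14, joins 84751594 and 84967527 near the middle of the patch, and its last, at place 5445, joins 84789441 and 84972519 at its edge. No strength is read from these places.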
